A study of Mus musculus with 10 samples.

Results

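The glucocorticoid receptor gene and 9 genes that regenerate its ligand or respond to it were followed in excised ulcers of db/db mice, a strain with a mutant leptin receptor that becomes obese and diabetic. The 10 genes were Nr3c1, Hsd11b1, Fkbp5, Tsc22d3, Zbtb16, Sgk1, Mt1, Mt2, Dusp1 and Klf9. They were taken by symbol from a table of 55421 genes, where each occurred once, and all 10 were among the 18509 genes with enough counts to be tested. One group of 5 RNA-seq libraries was made from saline-treated ulcers, and the other 5 from ulcers that received Fu Huang ointment as well as saline, for 7 days in both. Both groups shared the db/db background and a wound made by surgical resection. The ointment's composition is not given in the labels, and the ulcer tissue was sequenced whole. Neither the age of the animals nor whether each library came from its own animal is stated, so the p-values measure the spread between these libraries, which may be partly technical.

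Glucocorticoids such as corticosterone, the main one in mice, pass into cells and bind the receptor, which is held ready by HSP90 chaperones in the cytoplasm. The bound receptor moves into the nucleus, where it binds DNA at palindromic response elements and switches on target genes, and it also restrains inflammatory genes driven by NF-κB and AP-1. In skin these hormones dampen inflammation and slow wound closure, and skin itself can reactivate and make them. The target genes studied here include a co-chaperone that feeds back on the receptor (Fkbp5) and an anti-inflammatory protein known as GILZ (Tsc22d3). Others encode transcription factors (Zbtb16 and Klf9), a salt-handling kinase (Sgk1), a MAP kinase phosphatase (Dusp1) and metal-binding proteins (Mt1 and Mt2). Most of these genes also answer to other signals, such as zinc, stress kinases or the circadian clock.

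No gene of the 10 passed the threshold in the comparison of ointment with saline, although 7 had higher means with ointment. The receptor gene and Sgk1 had log2 fold changes of -0.17 and -0.0034. The genes with the largest log2 fold changes were Mt2 (1.17), Fkbp5 (1.04), Mt1 (0.97), Hsd11b1 (0.85) and Tsc22d3 (0.71). In each of these, and also in Dusp1 (0.44), all 5 ointment libraries lay above the saline median. How many of all genes share this was not counted. The quasi-likelihood test of edgeR, with Benjamini-Hochberg adjustment over all 18509 genes, called 0 of the 10 at an adjusted p under 0.05 and 1.67% of all genes tested. At an unadjusted p under 0.05, 4 of the 10 were higher (Hsd11b1, Tsc22d3, Mt1 and Mt2) and none lower, where 8.59% of all genes were higher and 17.1% differed in either direction. The DESeq2 Wald test also called none of the 10, beside 9.09% of the genes it gave an adjusted p. Limma voom called none, beside 353 of the 18509 genes. At an unadjusted p under 0.05, DESeq2 had 5 and limma voom 4 of the 10, and their shares over all genes were not counted. By edgeR that count was 1 in place of 4 without saline 1, saline 3, ointment 3 or ointment 5, and 2 without saline 4. None of the 10 had groups that did not overlap, which was true in the direction of higher with ointment of 3.11% of all genes tested. Their median log2 fold change was 0.69, beside -0.003 over all genes.

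**Figure D1:**
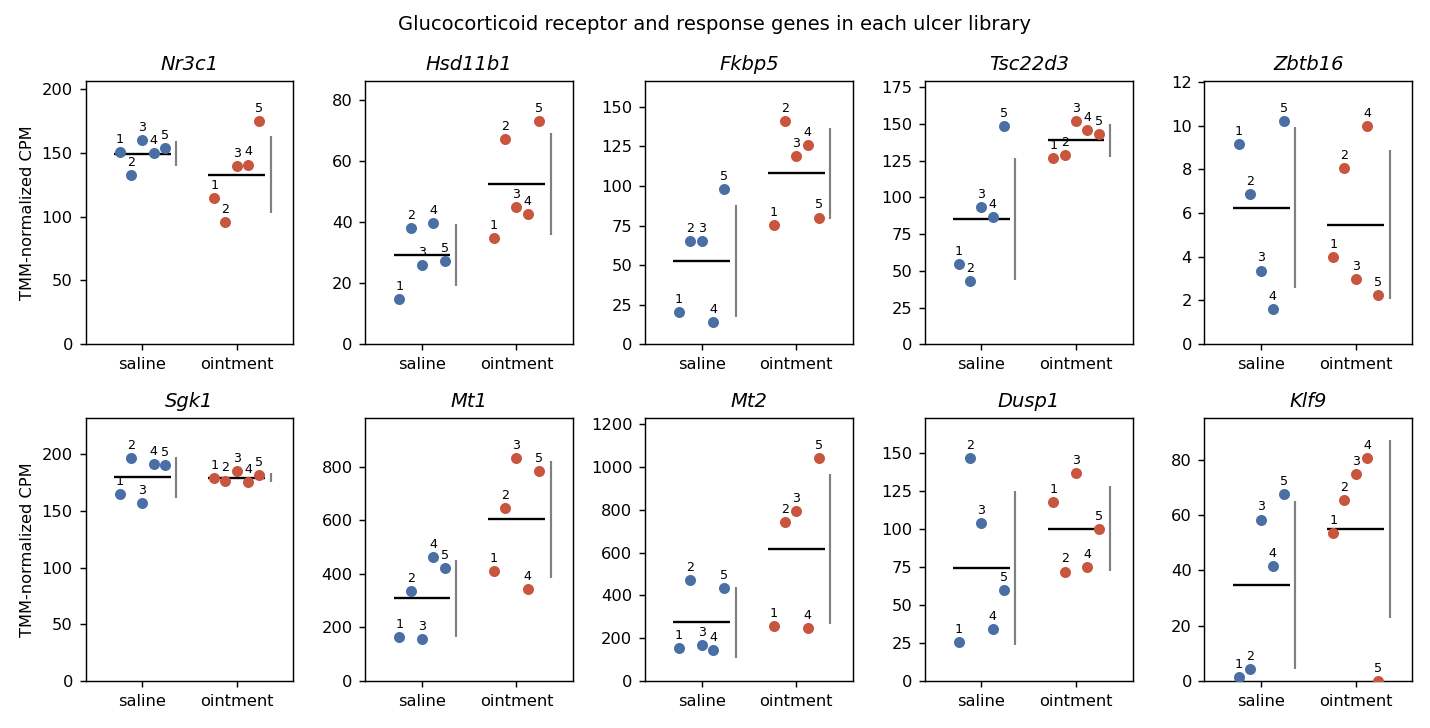
Each panel shows 1 gene, with the CPM (counts scaled to library size by the TMM method of edgeR) of each library as a numbered point, the group mean as a horizontal line and mean ± SD (n = 5) as a grey bar. Sgk1 in both groups and Nr3c1 with saline lie close together, while Fkbp5 and Dusp1 have very low points in saline 1 and 4, and Klf9 is near 0 in saline 1, saline 2 and ointment 5.

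Totals were 47.8 to 62.9 M estimated counts per library (M, mega), and the gene with the lowest means of the 10, Zbtb16, rested on 101 to 617 counts. Klf9 rested on fewer in saline 1 (89 counts) and ointment 5 (3 counts). Of 8339 genes with a mean of at least 20 CPM, 298 (3.57%) differed more than 20-fold between their highest and lowest library, with 0.1 CPM added to both. Klf9 was the single member with such a range. Keratinocyte, fibroblast, macrophage, adipocyte and muscle markers were all present in the ulcers, and the summed level of 9 macrophage markers was 2323 to 5109 CPM with saline and 6038 to 9389 CPM with ointment. The 8 hair follicle markers summed to 35.3 to 658 CPM with saline and 12.4 to 39.2 CPM with ointment. In bulk tissue, more cells of a type and more RNA per cell cannot be told apart, and this holds for every gene below.

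Nr3c1 encodes the glucocorticoid receptor and lies on chromosome 18 of GRCm38, from 39410545 to 39519421 on the minus strand, with 9 annotated transcripts. Saline libraries 1 to 5 held 151, 133, 160.3, 149.7 and 154 CPM. Ointment libraries 1 to 5 held 115, 96.2, 139.5, 141 and 175 CPM. The saline values were tightly grouped, and the ointment values spanned a wider range, with 4 of 5 below the saline median and ointment 5 above every saline library. The means were 149.6 ± 10.1 and 133 ± 30 CPM (SD, n = 5 each), with a log2 fold change of -0.17 (SE 0.15, 95% interval -0.51 to 0.17, adjusted p = 0.662 by edgeR). On the linear scale that interval ran from 0.704 to 1.13-fold.

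The chaperones and co-regulators that act with the receptor did not pass either. In a list of 19 such genes, all were tested, edgeR and DESeq2 called none, none had an unadjusted p under 0.05 by edgeR, and 8 had positive and 11 negative log2 fold changes (median -0.03). Among those with the smallest p were the coactivator gene Ncoa2 (0.65, adjusted p = 0.363 by edgeR), Fkbp4 (-0.27, 0.41) and Ppid (-0.22, 0.416). Fkbp4 and Ppid encode immunophilin co-chaperones of the receptor complex. Nr3c2, the mineralocorticoid receptor gene, was far below Nr3c1, with a mean of 3.71 CPM in the saline and 3.25 CPM in the ointment libraries.

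Hsd11b1 encodes the enzyme that turns inactive 11-dehydrocorticosterone back into corticosterone inside tissues. It lies on the minus strand of chromosome 1, from 193221634 to 193264075, and has 7 annotated transcripts. Its level was 14.9, 38.1, 26, 39.7 and 27.3 CPM in saline libraries 1 to 5. It was 34.7, 67.2, 45.1, 42.6 and 73.2 CPM in ointment libraries 1 to 5. Of the ointment libraries, 4 exceeded the highest saline value and ointment 1 lay between saline 5 and saline 2. The means were 29.2 ± 10.1 and 52.6 ± 16.7 CPM (SD, n = 5 each), a 1.80-fold difference with a 95% interval of 1.14 to 2.84-fold that did not pass after adjustment (adjusted p = 0.174 by edgeR, log2 fold change 0.85, SE 0.29). An exact permutation test of log2 CPM over all assignments of the libraries gave a two-sided p of 0.0317, and 0.215 after adjustment over all genes.

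The 3 tested genes whose levels followed Hsd11b1 most closely over the 10 libraries, of 11827 compared, were Cd300lf (Pearson r 0.977, Spearman rho 0.93), Cxcr2 (0.974, 0.87) and Trim30b (0.972, 0.94). These values include the difference between the groups and were chosen as the highest, so they carry no test. Cd300lf is an inhibitory receptor gene of myeloid cells and Cxcr2 the chemokine receptor gene of neutrophils. All 8 neutrophil markers listed were tested, all had positive log2 fold changes and none was called. Cxcr2 is among these markers, so their sum is not independent of the choice above. Their summed level was 851, 1933, 1316, 2728 and 1059 CPM in saline libraries 1 to 5 and 2284, 5019, 3267, 1687 and 7820 CPM in ointment libraries 1 to 5. Ointment 5 and ointment 2 were highest for both Hsd11b1 and the neutrophil sum, and saline 1 was lowest for both. The 8 adipocyte markers summed to 712 to 2029 CPM with saline and 1768 to 2963 CPM with ointment. The 9 fibroblast markers summed to 36825 to 55729 and 19212 to 60254 CPM. The part of these cells in the Hsd11b1 values was not tested.

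**Figure D2:**
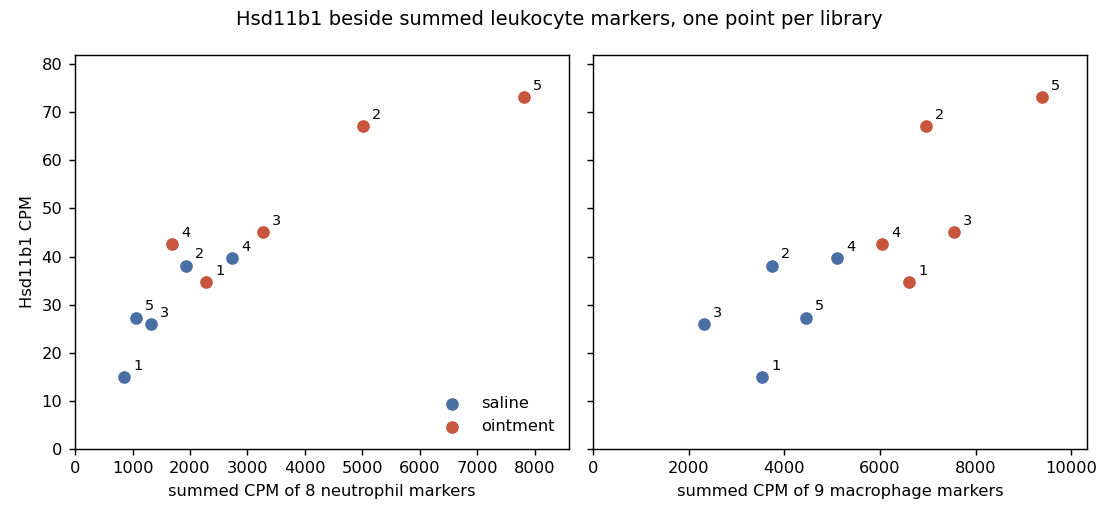
Hsd11b1 CPM (vertical axis) is plotted against the summed CPM of 8 neutrophil markers (left) and 9 macrophage markers (right), with 1 numbered point per library in blue for saline and red for ointment. The neutrophil markers include Cxcr2. Ointment 2 and 5 are at the upper right in the left panel and saline 1 at the lower left, and in the right panel the macrophage sums of the 2 groups do not overlap.

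Other genes of steroid-converting enzymes and their partners were mostly low. Of 16 listed, Cyp11b1, Cyp21a1, Hsd3b1 and Akr1c6 had too few counts and 12 were tested. Of these, edgeR called 1 lower and 0 higher, beside 1.67% called among all genes. Negative log2 fold changes were found in 9 and positive in 3 (median -0.35), where 49.7% of all genes were positive. Cyp17a1, a steroid hydroxylase on the route to androgens and cortisol (chromosome 19, 46667165 to 46673172, minus strand), fell from 14.0 ± 2.84 to 5.47 ± 1.42 CPM (adjusted p = 0.0202 by edgeR, log2 fold change -1.36, SE 0.22; SD, n = 5 each). Its saline libraries held 17.7, 13.8, 15.5, 13.3 and 10 CPM and its ointment libraries 3.73, 7.31, 4.79, 6.50 and 5.03 CPM, without overlap. The call was lost without saline 3, ointment 3 or ointment 5, with adjusted p up to 0.0617 when each library was omitted in turn. Beside it, the 6 melanocyte markers summed to 29.1 to 77.6 CPM with saline and 7.44 to 15.1 CPM with ointment, with 4 of 6 called lower, and the 8 hair follicle markers had 6 called lower. Their part in the Cyp17a1 values was not tested. Hsd11b2, which inactivates corticosterone and so opposes Hsd11b1, was 1.55 ± 0.945 and 0.441 ± 0.359 CPM (log2 fold change -1.81, adjusted p = 0.261). H6pd, which supplies Hsd11b1 with NADPH, was 6.29 to 21.8 CPM with saline and up to 137 CPM, in ointment 1, with ointment (1.52, adjusted p = 0.343). Hsd3b7 was at -0.50 (adjusted p = 0.403).

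Fkbp5 encodes FKBP51, a co-chaperone that the receptor induces and that then lowers the receptor's affinity for its hormone. The gene is on the minus strand of chromosome 17, from 28399094 to 28517527, with 15 annotated transcripts. Saline libraries 1 to 5 held 20.1, 65.4, 65.5, 13.8 and 98.1 CPM of it. In ointment libraries 1 to 5 it was 75.2, 141, 119, 126 and 80.1 CPM. Saline 1 and 4 were far below every other library, and saline 5 lay above ointment 1 and 5. The means were 52.6 ± 35.2 and 108 ± 28.9 CPM (SD, n = 5 each; log2 fold change 1.04, SE 0.49, 95% interval -0.05 to 2.13, adjusted p = 0.318 by edgeR). Without saline 4 the log2 fold change was 0.79, and without saline 5 it was 1.39. The exact permutation test gave a two-sided p of 0.0397 (0.235 adjusted over all genes).

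Tsc22d3, on the X chromosome from 140539528 to 140600659 on the minus strand, encodes GILZ, which binds NF-κB and AP-1 and carries part of the anti-inflammatory action of glucocorticoids. Levels in saline libraries 1 to 5 were 54.5, 43.0, 93.8, 86.4 and 149 CPM, and in ointment libraries 1 to 5 they were 127, 129, 152, 146 and 143 CPM. The ointment libraries formed a narrow band that saline 5 reached and the other 4 saline libraries did not. The coefficient of variation was 48.6% among the saline and 8.03% among the ointment libraries. Means were 85.4 ± 41.5 and 139 ± 11.2 CPM (SD, n = 5 each), a 1.63-fold difference (log2 fold change 0.71, SE 0.29, 95% interval 0.06 to 1.36, adjusted p = 0.252 by edgeR). The adjusted p was lowest without saline 5, at 0.0778 with a log2 fold change of 1.01, and reached 0.561 over the 21 alternatives. The exact permutation p was 0.0397 (0.235 adjusted over all genes), two-sided.

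Sgk1 encodes a kinase that raises sodium channel and transporter activity and is an early target of both corticosteroid receptors. It lies on the plus strand of chromosome 10, from 21882184 to 21999903, with 13 annotated transcripts and 6 start sites in RefSeq. The receptor's response element joins the half-site AGAACA, after any 3 bases, to its reverse complement TGTTCT. That exact element, which reads the same on both strands and contains 2 half-sites, was found in 3 of 32817 RefSeq promoter windows (0.00914%) of 300 bases, 250 before to 50 after a start. One of the 3 was at Sgk1. The 250 bases before that start, at 21993890, are shown because they hold the only full element among the 15 windows of the 8 members that had one, with the element in capitals (RefSeq, GRCm38.p6, chr10:21993640-21993889, plus strand, 5′ to 3′).
Sgk1: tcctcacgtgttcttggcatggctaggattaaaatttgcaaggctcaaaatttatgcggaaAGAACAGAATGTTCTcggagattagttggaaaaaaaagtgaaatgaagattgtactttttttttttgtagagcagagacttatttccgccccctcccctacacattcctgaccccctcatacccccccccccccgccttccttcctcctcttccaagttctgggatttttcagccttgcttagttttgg
The element spans -189 to -175 from the start. A match is a description of letters and not a test of binding. A half-site on either strand was present in 19.0% of all windows, in 3 of the 6 windows of Sgk1 and in 1 of the 3 windows of Tsc22d3, and in no window of the other 6 members searched.

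The level of Sgk1 was among the steadiest of all genes. Saline libraries 1 to 5 held 165, 197, 157, 192 and 191 CPM, and ointment libraries 1 to 5 held 179, 177, 185, 176 and 182 CPM. The ointment values lay inside the saline range. The means were 180.0 ± 18.1 and 179.6 ± 3.81 CPM (SD, n = 5 each), a log2 fold change of -0.0034 (adjusted p = 0.993 by edgeR, SE 0.09) with a 95% interval of 0.865 to 1.15-fold. The spread within groups, an SD of 0.11 on the log2 scale, was smaller in 4.59% of the genes with at least 5 CPM. The sign of so small a difference changed with the scaling and with the library left out. Of 15 tested paralogs of Sgk1, Klf9, Tsc22d3 and Fkbp5, Klf6, an injury-induced transcription factor gene, rose from 189 ± 12.2 to 284 ± 34.5 CPM (adjusted p = 0.03 by edgeR, log2 fold change 0.59, SE 0.11). It passed in 2 of 10 fits that omitted a library, those without saline 5 or ointment 4 (adjusted p up to 0.071). The other 14 paralogs did not pass by edgeR, which called 1.67% of all genes tested. DESeq2 called Klf6 and Klf11, beside 9.09% of the genes it gave an adjusted p. The list had 7 positive and 8 negative values (median -0.09). Among them Klf11 was at 0.42 (adjusted p = 0.084), Klf5 at -0.52 (0.225) and Klf13 at 0.33 (0.384).

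Klf9, on the plus strand of chromosome 19 from 23141226 to 23168134, encodes a Krüppel-like factor induced by glucocorticoids and thyroid hormone that restrains keratinocyte proliferation. Saline libraries 1 to 5 held 1.48, 4.39, 58.4, 41.4 and 67.6 CPM. In the ointment group, libraries 1 to 4 held 53.4, 65.5, 74.9 and 80.7 CPM, and ointment 5 held 0.0568 CPM, from 3 counts. The values fell into a band of 41.4 to 80.7 CPM in 7 libraries and near 0 in 3 libraries, which came from both groups. The highest library was 515 times the lowest with 0.1 CPM added to both and the interval was wide (log2 fold change 0.66, SE 1.24, 95% interval -2.10 to 3.42, adjusted p = 0.862 by edgeR). Why some libraries were near 0 was not tested. The genes most like it over the 10 libraries were Nanp, Slc38a7 and Wdr81 (Pearson r 0.936, 0.932 and 0.925, with Spearman rho 0.45, 0.85 and 0.84).

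Zbtb16 encodes PLZF, a zinc finger repressor that glucocorticoids induce strongly in many cell types. Located on chromosome 9 from 48654297 to 48836222 on the minus strand, it was the least abundant of the 10 genes. Its level was 9.15, 6.88, 3.37, 1.6 and 10.2 CPM in saline libraries 1 to 5 and 3.98, 8.07, 2.99, 10 and 2.27 CPM in ointment libraries 1 to 5. The groups covered nearly the same range. The means were 6.24 ± 3.68 and 5.47 ± 3.40 CPM (SD, n = 5 each; log2 fold change -0.19, SE 0.56, 95% interval -1.44 to 1.06, adjusted p = 0.918 by edgeR), and the sign turned without saline 5 (0.06) or ointment 5 (0.01).

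Dusp1 encodes the phosphatase MKP-1, which switches off the MAP kinases p38 and JNK and is induced both by glucocorticoids and, within minutes, by stress. It lies on the minus strand of chromosome 17, from 26505590 to 26562128. Saline libraries 1 to 5 held 25.6, 147, 104, 34.5 and 59.7 CPM. The ointment libraries held 118, 72.1, 137, 74.8 and 100.2 CPM. Saline 1, 4 and 5 were below every ointment library, and saline 2 was above all of them. Means were 74.2 ± 50.8 and 100.4 ± 27.9 CPM (SD, n = 5 each; log2 fold change 0.44, SE 0.45, 95% interval -0.56 to 1.44, adjusted p = 0.704 by edgeR). An exon of Ergic1 on the opposite strand overlaps an annotated Dusp1 exon, and since nothing states that strand was kept, reads of the pair could not be told apart there. Ergic1 was 18.5 to 52.2 CPM with saline and 25.7 to 29.0 CPM with ointment.

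Among relatives of Dusp1 and other fast-responding genes, positive and negative values were about equally frequent. By edgeR none of 10 other DUSP genes that act on MAP kinases was called and 2 had an unadjusted p under 0.05, with 6 positive and 4 negative values (median 0.14). DESeq2 called 2 of them higher, Dusp16 and Dusp9 (adjusted p = 0.0374 and 0.0461), beside 9.09% of the genes it gave an adjusted p. Without ointment 4, edgeR called Dusp16 (adjusted p = 0.0495). Dusp16 was at 0.62 (adjusted p = 0.128 by edgeR), Dusp9 at 0.84 (0.17), Dusp14 at -0.88 (0.368) and Dusp8 at -0.39 (0.414). Of 14 immediate early genes, which are switched on within minutes of a stimulus or of tissue handling, 13 were tested and none was called by edgeR or DESeq2, with 2 lower at an unadjusted p under 0.05 by edgeR (median -0.03, 6 positive and 7 negative). Egr1 was at -0.70 (adjusted p = 0.218), Egr2 at -1.25 (0.285), Jun at -0.23 (0.308) and Fosl1 at 0.95 (0.403).

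Mt1 and Mt2 encode metallothioneins, small cysteine-rich proteins that bind zinc and copper. They are induced by metals through the factor MTF1, by glucocorticoids and in the acute phase of inflammation. The pair lies on the plus strand of chromosome 8, Mt2 from 94172664 to 94173568 and Mt1 from 94179082 to 94180327, with 5513 bases between them. The core of the metal response element, TGCACNC or TGCGCNC on either strand, was found 4 times in the RefSeq window of Mt2 and 3 times in that of Mt1. At least 3 matches were present in 1.97% and at least 4 in 0.518% of all 32817 windows. The 250 bases before each start are shown because these neighbours had the most matches of the members, with the cores in capitals (RefSeq, GRCm38.p6, chr8:94172368-94172617 and chr8:94178839-94179088, plus strand, 5′ to 3′).
Mt2: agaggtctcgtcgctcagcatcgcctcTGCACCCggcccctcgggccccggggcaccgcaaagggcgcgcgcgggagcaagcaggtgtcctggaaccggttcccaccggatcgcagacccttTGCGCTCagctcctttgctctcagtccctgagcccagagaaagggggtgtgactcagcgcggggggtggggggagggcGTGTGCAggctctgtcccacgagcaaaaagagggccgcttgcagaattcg
Mt1: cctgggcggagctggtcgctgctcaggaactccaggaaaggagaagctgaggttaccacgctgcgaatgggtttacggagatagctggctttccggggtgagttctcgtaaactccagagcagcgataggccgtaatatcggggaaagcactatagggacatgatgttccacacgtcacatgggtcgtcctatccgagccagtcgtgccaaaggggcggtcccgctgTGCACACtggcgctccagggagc
The 3 cores of Mt2 shown begin at -223, -128 and -50 from its RefSeq start, and the single core of Mt1 at -23. The remaining 1 of Mt2 and 2 of Mt1 lie within the 50 bases after the start. No full receptor element or half-site was found in either window, which says only that these letters are not there.

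Both metallothionein genes had about 2-fold higher means with ointment, within a wide spread. Mt1 was 164, 337, 156, 463 and 421 CPM in saline libraries 1 to 5 and 411, 645, 833, 344 and 784 CPM in ointment libraries 1 to 5. For Mt2 the saline libraries held 152, 471, 167, 143 and 436 CPM and the ointment libraries 258, 742, 793, 249 and 1043 CPM. In both genes ointment 2, 3 and 5 exceeded every saline library, while ointment 1 and 4 lay among the saline values. The means of Mt1 were 308 ± 143 and 603 ± 219 CPM (SD, n = 5 each), 1.96-fold with a 95% interval of 1.1 to 3.48-fold (adjusted p = 0.22 by edgeR, log2 SE 0.37). Those of Mt2 were 274 ± 165 and 617 ± 351 CPM, 2.25-fold with an interval of 1.01 to 5.01-fold (adjusted p = 0.282, log2 SE 0.52). Exact permutation gave two-sided p of 0.0635 for Mt1 and 0.119 for Mt2.

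The sum of the pair was 316, 808, 324, 606 and 857 CPM in saline libraries 1 to 5 and 669, 1387, 1626, 593 and 1827 CPM in ointment libraries 1 to 5, again with ointment 2, 3 and 5 above all others. The ratio of Mt2 to Mt1 ran from 0.309 in saline 4 to 1.4 in saline 2. The genes are close paralogs whose reads the counting could have split, and an antisense gene, Gm45774, overlaps an exon of Mt2 (18.9 to 58.7 CPM with saline, 33.4 to 131 CPM with ointment). If reads were split, single values are less certain than the sum, while antisense reads counted as Mt2 would enter the sum too. Neither was tested.

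In a list of 14 other metal-handling genes, most values were slightly negative. Of these, 13 were tested and 11 had negative log2 fold changes (median -0.15), and edgeR called 1 lower and 0 higher, beside 1.67% called among all genes. Slc39a8, a zinc and manganese importer gene, fell from 45.8 ± 9.29 to 17.0 ± 6.40 CPM (adjusted p = 0.0372 by edgeR, log2 fold change -1.43, SE 0.28; SD, n = 5 each), and its groups did not overlap. It passed in 3 of 10 fits that omitted a library, those without saline 5, ointment 1 or ointment 4 (adjusted p up to 0.0905). Hmox1, the haem oxygenase gene, had the largest positive value of the list (1.1, adjusted p = 0.0757) and was called by DESeq2 (0.00409) and without ointment 4 (0.0467). Mtf1 itself was at -0.27 (adjusted p = 0.608) and the zinc importer gene Slc39a10 at -0.82 (0.215).

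**Figure D3:**
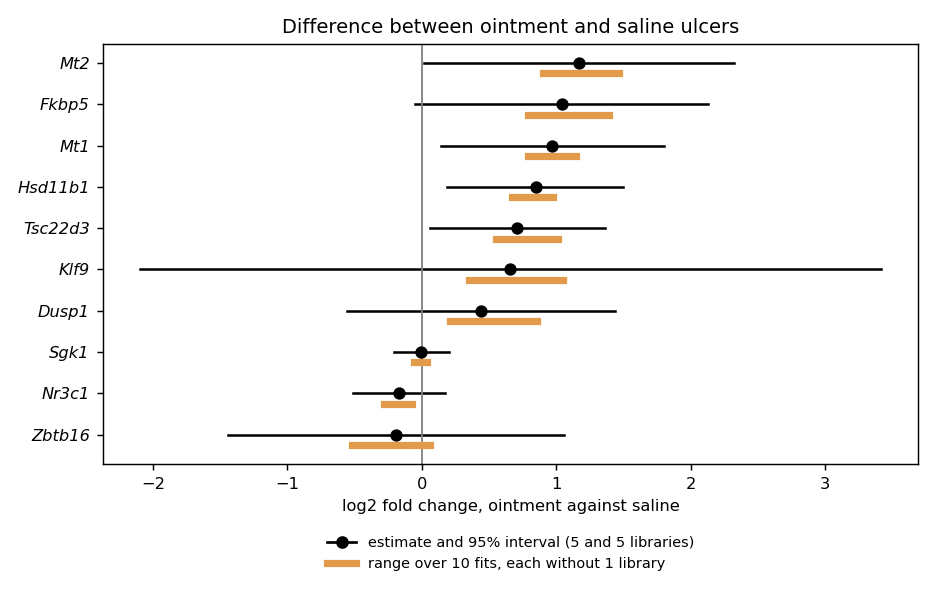
For each of the 10 genes the black point and line give the log2 fold change of ointment against saline with its 95% interval, and the orange bar gives the range of estimates when each library was left out in turn. The intervals of Mt2, Mt1, Hsd11b1 and Tsc22d3 lie above 0 before any adjustment for the number of genes, Sgk1 has the narrowest interval and Klf9 the widest.

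Most of the 10 genes were more variable among the saline than among the ointment libraries, a description with no test of the difference. The coefficient of variation was lower with ointment in 8 of 10 members and in 44.6% of all genes tested, and the SD of log2 CPM was lower in 7 of 10 and in 45.2% of all genes. Nr3c1 went the other way (6.72% with saline, 22.5% with ointment). Saline 1 was the lowest of the 10 libraries for Hsd11b1 and Dusp1. It was also among the 2 lowest for Fkbp5, Tsc22d3, Mt1, Mt2 and Klf9, but its Zbtb16 level was the third highest. Saline 5 was the highest saline library for Fkbp5, Tsc22d3, Zbtb16 and Klf9. Among the ointment libraries, ointment 5 had the highest Nr3c1, Hsd11b1 and Mt2 and the lowest Klf9 and Zbtb16.

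**Figure D4:**
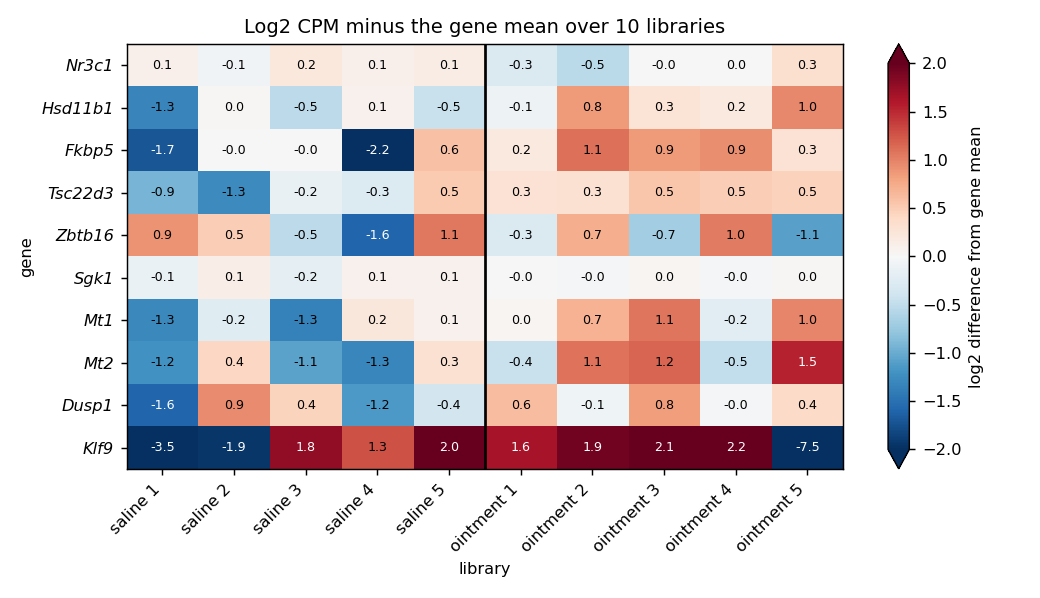
Rows are the 10 genes and columns the libraries, with saline left of the black line; each cell gives log2 CPM minus the gene's mean over the 10 libraries, in red where higher and blue where lower, with colours cut at -2 and 2. Saline 1 is blue for most genes, the Sgk1 row is nearly white, and Klf9 switches between values near 2 and values down to -7.54 in ointment 5.

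Pairs of members followed each other loosely once group means were removed. Of 45 pairs, 31 had a positive correlation of their deviations over the 10 libraries, 3 had an unadjusted p under 0.05 and 0 an adjusted p under 0.05 by exact permutation of the libraries within groups. The strongest was Sgk1 with Mt1 (Pearson r 0.83, exact permutation p = 0.0115, adjusted over 45 pairs 0.519; Spearman rho 0.87, p = 0.016, adjusted 0.645). Without saline 1 and 3, the libraries farthest from the median of Sgk1, its r was 0.54. Mt1 with Mt2 gave r 0.68 (exact permutation p = 0.0564, adjusted 0.634; rho 0.41, p = 0.215, adjusted 0.743), and 0.64 without saline 1 and 3. Nr3c1 with Tsc22d3 gave r 0.33 (exact permutation p = 0.0301, adjusted 0.634; rho 0.45, p = 0.0712, adjusted 0.645) and 0.42 without ointment 1 and 2. Hsd11b1 with Mt1 gave r 0.70 (exact permutation p = 0.0437, adjusted 0.634; rho 0.61, p = 0.0692, adjusted 0.645) and 0.54 without saline 1 and ointment 5.

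The genes most like each remaining member over the 10 libraries, by Pearson r, were not other members. They were Rnasek, Anxa7 and Zc3h3 for Nr3c1 (0.923, 0.896 and 0.894), and Lsg1, Ecscr and B4galt5 for Sgk1 (0.916, 0.905 and 0.904). For Fkbp5 they were Pdp1, Cab39 and Lrrc27 (0.943, 0.941 and 0.931), and for Tsc22d3 Fra10ac1, Paip2 and Snx5 (0.938, 0.92 and 0.909). Mt1 was followed by Nsmce1, Slc35b3 and Lrrc40 (0.962, 0.956 and 0.952), and Mt2 by Snx2, Uxt and H13 (0.947, 0.943 and 0.941). For Dusp1 they were Timm10b, Ralgapb and Slc7a11 (0.912, 0.904 and 0.887), and for Zbtb16 Tmem147, Gpsm1 and Ndufb2 (0.921, 0.904 and 0.892). With 11827 genes compared over 10 libraries that share their depth and group structure, these values describe likeness and carry no test.

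Scaled to the length of the longest coding transcript, the metallothionein messages were by far the most abundant. In the saline libraries the mean level per kilobase was 536 ± 323 CPM for Mt2 and 284 ± 132 CPM for Mt1 (SD, n = 5). Below them came Sgk1 (58.1 ± 5.85), Tsc22d3 (43.3 ± 21.0), Dusp1 (37.3 ± 25.5) and Nr3c1 (23.2 ± 1.57 CPM per kilobase). Hsd11b1 (18 ± 6.22), Fkbp5 (13.6 ± 9.12) and Klf9 (7.74 ± 6.80) followed, with Zbtb16 last at 1.22 ± 0.72 CPM per kilobase. Apart from Mt1 and Sgk1, each pair of neighbours in this order lay within the larger of their SDs. In the ointment libraries the order began with Mt2 (1210 ± 687) and Mt1 (556 ± 202), and Tsc22d3 (70.4 ± 5.67) then stood above Sgk1 (58.0 ± 1.23 CPM per kilobase), beyond the larger SD. Dusp1 (50.5 ± 14.0), Hsd11b1 (32.4 ± 10.3), Fkbp5 (28.0 ± 7.49), Nr3c1 (20.7 ± 4.66), Klf9 (12.2 ± 7.2) and Zbtb16 (1.07 ± 0.665 CPM per kilobase) followed. Over the length of all annotated exons instead, Sgk1 (36.6) stood above Tsc22d3 (32.0 CPM per kilobase) with ointment, so the order of that pair depends on the length used. For Mt2 and Mt1 the longest coding transcripts had 511 and 1085 bases, the latter in 1 exon. Before scaling, their saline means were 274 and 308 CPM, and over all annotated exons 466 and 247 CPM per kilobase.

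Genes known to be induced by glucocorticoids in one cell type or another, outside the 10 members, tended to have higher means with ointment. Of 33 listed, 32 were tested, and by edgeR 3 rose, none fell and 29 did not pass, beside 1.67% called among all genes. The DESeq2 Wald test called 7, all higher, adding Anxa1, Il1r2, Nfkbia and Tnfaip3 (adjusted p = 0.0335 to 0.0431), beside 9.09% of the genes it gave an adjusted p. With limma voom 2 were called, beside 353 of all 18509 genes tested. Positive log2 fold changes were found in 26 and negative in 6, with a median of 0.58 beside -0.003 for all genes. At an unadjusted p under 0.05, 11 were higher, beside 8.59% of all genes, and 2 lower. Pdk4, which spares glucose by inhibiting pyruvate dehydrogenase, rose from 29.4 ± 8 to 91.0 ± 31.4 CPM (adjusted p = 0.0298 by edgeR, log2 fold change 1.63, SE 0.29; SD, n = 5 each). Angptl4, an inhibitor of lipoprotein lipase, rose from 152 ± 39 to 323 ± 52.6 CPM (1.08, SE 0.20, adjusted p = 0.0305). The clock gene Per1 rose from 44.0 ± 13.7 to 111 ± 34 CPM (1.34, SE 0.27, adjusted p = 0.0412). Anxa1, an anti-inflammatory annexin gene, did not pass by edgeR (0.62, adjusted p = 0.132).

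Pdk4 lies on chromosome 6 (5483351 to 5496309, minus strand), Angptl4 on chromosome 17 (33773750 to 33781830, minus strand) and Per1 on chromosome 11 (69095217 to 69109960, plus strand). Their values did not overlap between groups, though narrowly so for Pdk4. Of the 32 tested genes of the list, 4 lay fully higher with ointment, beside 3.11% of all genes, and 1 fully lower. Per1 was 24.0, 41.8, 45.7, 46.0 and 62.4 CPM in saline libraries 1 to 5 and 98.2, 95.5, 124, 74.7 and 163 CPM in ointment libraries 1 to 5. For Pdk4, saline libraries held 23.0, 21.0, 41.0, 29.3 and 32.5 CPM and ointment libraries 83.3, 99.3, 41.0, 123 and 108 CPM, so that saline 3 and ointment 3 were nearly equal. Angptl4 was 94.6 to 203 CPM with saline and 254 to 392 CPM with ointment. Their calls were not stable to the loss of a library. Pdk4 passed in 3 of 10 such fits (without saline 3, ointment 3 or ointment 4; adjusted p up to 0.0749), Angptl4 in 3 (without saline 1, saline 2 or ointment 4; up to 0.0754) and Per1 in 2 (without saline 5 or ointment 4; up to 0.0982). Pdk4 also lost its call with limma voom (adjusted p = 0.0587), and all 3 did with 4 libraries per group (0.147 for Pdk4, 0.076 for Angptl4 and 0.0964 for Per1). These genes also answer to other signals, Pdk4 and Angptl4 to fatty acids through PPAR factors and Per1 to the clock. The 8 adipocyte markers summed to 712 to 2029 CPM with saline and 1768 to 2963 CPM with ointment, with 7 of 8 positive and 1 called higher, and their part was not tested.

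Of inflammatory genes that glucocorticoids are known to repress, most had higher means with ointment. All 21 listed were tested, 19 had positive and 2 negative log2 fold changes (Sele and Ccl4), and the median was 1.37. Several positive values leaned on 1 high ointment library. In Ptgs2 the ointment mean was 667 CPM and the highest ointment library 3099 CPM, and in Il1a 187 and 852 CPM. Il1b had 1482 and 5116 CPM, and Cxcl2 1166 and 4109 CPM. The saline means of these genes were 124, 30.3, 602 and 441 CPM in that order. By edgeR 1 of the 21 passed, the gelatinase gene Mmp9 (2.14, SE 0.30, adjusted p = 0.0143), beside 1.67% called among all genes. Mmp9 also passed in each of the 10 fits that omitted a library (adjusted p 0.0145 to 0.0383) and with 4 libraries per group (0.0445). With the replicate block it did not (0.141). At an unadjusted p under 0.05, 8 were higher, beside 8.59% of all genes, and 1 lower. DESeq2 called 5, all higher (Mmp9, Cxcl1, Il6, Ccl7 and Nos2), beside 9.09% of the genes it gave an adjusted p. Without saline 2 edgeR also called Mmp13 higher (adjusted p = 0.0398), and with 4 libraries per group it called Ccl4 lower (0.00943). By edgeR Cxcl1 was at 4.26 (adjusted p = 0.0895), Il6 at 3.29 (0.116) and Ccl7 at 1.43 (0.148). Ointment 5 held the highest Cxcl1 (322 CPM), Il6 (97.3 CPM) and Ccl7 (331 CPM) of all libraries. The macrophage sums given above did not overlap between groups (9 of 9 markers positive, 2 called higher), the neutrophil sums did, and their part in these values was not tested.

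**Figure D5:**
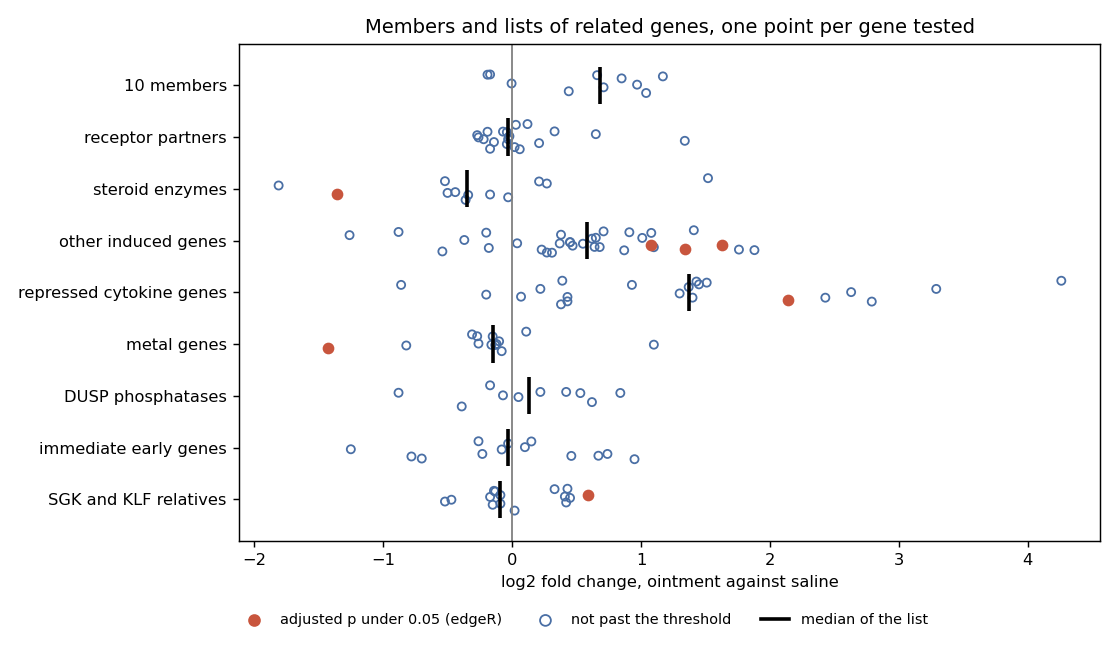
Each point is the log2 fold change of 1 tested gene, filled where the adjusted p by edgeR was under 0.05, with a black bar at the median of each list. The 10 members (median 0.69) and the other induced genes (0.58) lie mostly to the right of 0, as do the repressed inflammatory genes (1.37), while the receptor partners (-0.03) and the immediate early genes (-0.03) are centred on 0.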

How the data were processed

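Estimated counts per gene were deposited by the authors as a single table of whole numbers with 1 column per library and no normalization. The submitters' processing notes name the build GRCm38 (mm10). Which aligner, counter and gene models were used is not given in the sources used here. Values are treated as estimated because 4 occurred 9202 times, more often than 3 (4235) or 5 (5804), and 8 occurred 4812 times, more often than 7 (2022) or 9 (2955). A SMARTer kit for mRNA was used, per the labels' protocols, on RNA from whole ulcer tissue. Columns were matched to groups by description and title, and 0 columns were left unmatched.

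Counts were compared with edgeR 4.0.16 in R 4.3.3 (TMM scaling, robust quasi-likelihood F-test, filterByExpr at 10 counts and 15 in total, threshold 0.05 on Benjamini-Hochberg adjusted p over 18509 genes). CPM values were computed here from those counts with TMM scaling, and log2 CPM with a prior count of 2. Single genes were also compared by exact permutation over all assignments of 5 and 5 libraries, whose smallest p is 0.0079. The code was tested on simulated counts. Alternatives used DESeq2 1.42.0, limma 3.58.1 voom, other scalings and filters, values divided by 4, the replicate block and each library left out. A fit with 4 libraries per group was added after the data were seen. The design assumed raw counts, and its test was kept because the values were whole.

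The 10 members, the 8 lists of related genes and the 9 lists of cell markers were chosen with earlier results of these data known. Named genes were all members, every called gene of a list, filled up to 4 genes by the smallest p, and the 3 tested genes of at least 5 CPM with the highest Pearson r to each member. A gene that this rule chose from the lists is not reported here. Nr3c2, Ergic1 and Gm45774 as overlapping genes, and Il1r2, Nfkbia, Tnfaip3, Nos2, Mmp13, Sele and Ccl4 were named outside that rule after their values were seen. Ptgs2, Il1a, Il1b and Cxcl2 were likewise named outside it, after their values were seen. Cyp11b1, Cyp21a1, Hsd3b1 and Akr1c6 were also named outside it, because they were not tested. Locations came from GENCODE mouse release 21 on GRCm38. Promoter sequences came from RefSeq (GRCm38.p6) for 8 members, without Nr3c1 and Zbtb16.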

Additional observations from a re-analysis of the deposited data

Results flagged for a closer look

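In 102 groups of 5 libraries (the 10 members, the 32 other genes chosen from the lists and the 9 marker sums, in each group), 12 had a single library far from the other 4. The rule flags about 1 in 20 groups of independent, normally distributed values. CPM values need not be normal and the groups share libraries, so this count cannot show an excess. None of the 12 was a member. Ointment 5 stood high for Ccl7 (331 CPM), Cxcl1 (322 CPM), Il6 (97.3 CPM) and Fosl1 (11.4 CPM), and saline 5 for Cxcl1 (12.5 CPM). Ointment 1 stood high for H6pd (137 CPM) and low for Ppid (33.0 CPM), ointment 4 low for Dusp14 (4.35 CPM) and saline 1 low for Egr1 (55.1 CPM). The keratinocyte sum stood high in ointment 2 (28312 CPM), the skeletal muscle sum in ointment 4 (6738 CPM) and the endothelial sum in saline 2 (912 CPM).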

How the results depend on the processing

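Over 21 alternatives, none of the 210 member values passed the threshold (lowest adjusted p 0.0663, Hsd11b1 with DESeq2). Signs changed in 12 of them, all in Sgk1 and Zbtb16. Sgk1 turned to 0.01 with DESeq2 size factors, the DESeq2 Wald test and values divided by 4, and to 0.0023 with the replicate block, and ran from -0.06 to 0.04 with a library left out. Zbtb16 ran from -0.52 to 0.06 with a library left out and was 0.19 with 4 libraries per group. The count of members at an unadjusted p under 0.05 was 1 to 5 with a library left out and 0 with 4 libraries per group. Over all genes, 310 were called (128 higher, 182 lower), 1677 by the DESeq2 Wald test (873 higher, 804 lower), 102 (without ointment 3) to 422 (without ointment 4) with a library left out, 59 with 4 libraries per group and 0 with the replicate block; the cause was not tested. The replicate block rests on shared numbers only: same-numbered libraries correlated at -0.0772 to 0.0562 after group means were removed, and 0 of 5 saline libraries matched its own number best. Members called stayed at 0 with the replicate block, and Pdk4, Angptl4, Per1, Cyp17a1, Slc39a8, Klf6 and Mmp9 lost their calls.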
